A study of Mus musculus with 9 samples.

Results

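The transcription factors that set up and keep the B cell fate, Pax5, Ebf1, Pou2af1, Bach2, Ikzf1, Ikzf3, Spib, Foxo1, Tcf3 and Irf8, are described here by the DNA methylation of their genes. They are 10 of the 20665 autosomal protein-coding genes of the annotation and were chosen by name, each taken with its RefSeq span on GRCm38 and 20000 bp on either side. DNA methylation had been measured in mouse splenic B cells by whole-genome bisulfite sequencing, which converts unmethylated cytosines and so reads each CpG as methylated or not. The series looks at the borders of CpG islands and at Kmt2d, whose product places monomethylation on lysine 4 of histone H3 at enhancers. HOM mice were homozygous and HET mice heterozygous for an A>T change at position 98835228 of chromosome 15, which gives Ile5482Asn in Kmt2d, and WT mice carried the wild-type gene. The word ENU, which names a chemical mutagen, stands in the column names of HOM and HET but not of WT. All the cells came from whole spleen by depleting other cells on magnets, with no treatment. The sources used here give neither the age nor the strain of the mice.

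The table holds 1 pair of count columns for each genotype, called a library below, although the labels list 2 B cell samples for each, so no difference between libraries has a replicate check. Depth over all CpGs was 215454437 CpG reads in HOM, 282430649 in HET and 200824258 in WT, a mean of 9.85, 12.9 and 9.18 reads per CpG. Outside low-methylated stretches the autosomes stood at 81.2% in HOM, 84.0% in HET and 84.7% in WT. In a bulk sample, a lower level can come from more cells with unmethylated copies or from fewer methylated CpGs in each cell, and these cannot be told apart.

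In the marrow, Tcf3 (E2A), Ebf1 and Foxo1 specify the B lineage and switch on Pax5, which commits the cell to it by activating B cell genes and repressing those of other lineages. Ikzf1 (Ikaros) and Ikzf3 (Aiolos) are zinc finger factors that shape B cell development. Spib and Irf8 act in mature B cells, as does Pou2af1, the coactivator that Oct factors recruit to octamer sites, while Bach2 holds back plasma cell differentiation. Promoters in CpG islands are usually unmethylated whether or not the gene is active. Enhancers lie mostly outside islands, where factor binding goes with local loss of methylation.

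The starts of these genes differ widely in CpG content, and 5 of them are printed because the results below turn on them: those of Spib and Pou2af1, which lie outside islands, the CpG-dense first start of Irf8 with its sparser second start, and the start listed for Bach2. Each is the reference sequence of 250 bases before and 50 after a listed start, from RefSeq (GRCm38.p6), written 5′ to 3′ on the strand of the gene, with every CpG in capitals. Spib lies at chr7:44532022-44532321 on the minus strand. Pou2af1 lies at chr9:51213440-51213739 on the plus strand. The first and second Irf8 starts lie at chr8:120736108-120736407 and chr8:120738389-120738688 on the plus strand. Bach2 lies at chr4:32417185-32417484 on the plus strand.
Spib: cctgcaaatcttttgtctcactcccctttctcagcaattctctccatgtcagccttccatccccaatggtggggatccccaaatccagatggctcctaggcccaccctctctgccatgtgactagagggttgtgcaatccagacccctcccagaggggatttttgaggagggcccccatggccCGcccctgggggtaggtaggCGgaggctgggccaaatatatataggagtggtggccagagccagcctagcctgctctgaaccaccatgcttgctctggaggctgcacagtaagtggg
Pou2af1: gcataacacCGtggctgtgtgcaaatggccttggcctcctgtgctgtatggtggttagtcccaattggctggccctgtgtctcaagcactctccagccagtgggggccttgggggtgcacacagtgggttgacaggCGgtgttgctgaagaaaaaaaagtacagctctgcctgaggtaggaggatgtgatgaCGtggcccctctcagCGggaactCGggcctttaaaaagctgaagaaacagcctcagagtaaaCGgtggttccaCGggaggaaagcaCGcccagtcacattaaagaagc
Irf8 first start: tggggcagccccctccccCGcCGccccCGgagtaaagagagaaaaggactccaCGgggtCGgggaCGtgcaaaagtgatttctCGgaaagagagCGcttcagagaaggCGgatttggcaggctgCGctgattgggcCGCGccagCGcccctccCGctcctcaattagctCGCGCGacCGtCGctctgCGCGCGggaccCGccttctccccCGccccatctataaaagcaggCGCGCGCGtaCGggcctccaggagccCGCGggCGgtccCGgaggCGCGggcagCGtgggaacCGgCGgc
Irf8 second start: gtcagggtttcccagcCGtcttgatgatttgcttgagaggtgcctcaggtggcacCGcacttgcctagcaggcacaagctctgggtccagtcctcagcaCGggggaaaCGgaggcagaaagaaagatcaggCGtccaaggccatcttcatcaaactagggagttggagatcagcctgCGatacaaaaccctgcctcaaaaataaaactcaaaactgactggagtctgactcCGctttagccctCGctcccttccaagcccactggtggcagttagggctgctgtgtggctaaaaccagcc
Bach2: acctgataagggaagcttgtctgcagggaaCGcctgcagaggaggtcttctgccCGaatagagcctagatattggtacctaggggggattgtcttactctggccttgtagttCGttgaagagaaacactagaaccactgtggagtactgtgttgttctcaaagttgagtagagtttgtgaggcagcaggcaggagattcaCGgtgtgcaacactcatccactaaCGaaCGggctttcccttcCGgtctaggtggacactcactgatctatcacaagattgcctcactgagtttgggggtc

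The Spib sequence holds 2 CpGs, and 9 of 22 CpG reads were methylated there in HOM (40.9%), against 2 of 21 in HET (9.52%) and 2 of 20 in WT (10%). These are few reads, and this stretch was not tested by itself. Over the 8 CpGs of the Pou2af1 sequence the level was 12.7% in HOM, 3.70% in HET and 14.2% in WT, from 63, 108 and 155 reads. Its first CpG, 241 bases before the start, had 5 of 16 reads methylated in HOM, 1 of 13 in HET and 6 of 22 in WT, and 3 of the other CpGs had no HOM read. The first Irf8 start, with 38 CpGs, was nearly free of methylation, at 0.851% in HOM, 0.570% in HET and 0.654% in WT. Its second start, with 8 CpGs, stood at 66.1% in HOM, 46.3% in HET and 76.5% in WT. The 7 CpGs of the Bach2 sequence were methylated in every library, at 86.0%, 89.3% and 90.9% in HOM, HET and WT. The letters ATTTGCAT, the octamer, were found in none of the 12 sequences listed for 9 of the genes, on either strand. The EBF motif, TCCC and GGGA parted by any 2 bases, occurred once, at Foxo1, and the E-box CAGGTG once, at the second start of Irf8. Over all 31396 listed promoters the octamer occurs in 1.75%, the EBF motif in 0.920% and the E-box in 20.5%. No sequence was listed for Ikzf3.

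A gene-start window ran from 1000 bp outside to 500 bp inside the outermost listed start. Most of the 10 windows were nearly unmethylated in all 3 libraries, and the calls were few and at genes without an island at the start. A window or other region was called when it differed by at least 10 percentage points and its CpG reads passed Fisher's exact test (two-sided) at 0.05 after Benjamini-Hochberg adjustment over all autosomal regions of its kind. This compares libraries, not genotypes. In HOM against WT 0 of 10 windows were called, where 4.30% of 19047 windows were. In HET against WT 1 of 10 was called, against 2.53% of all windows, and in HOM against HET 1 of 10, against 3.35%. With 10 windows these counts do not stand apart from the background.

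**Figure D1:**
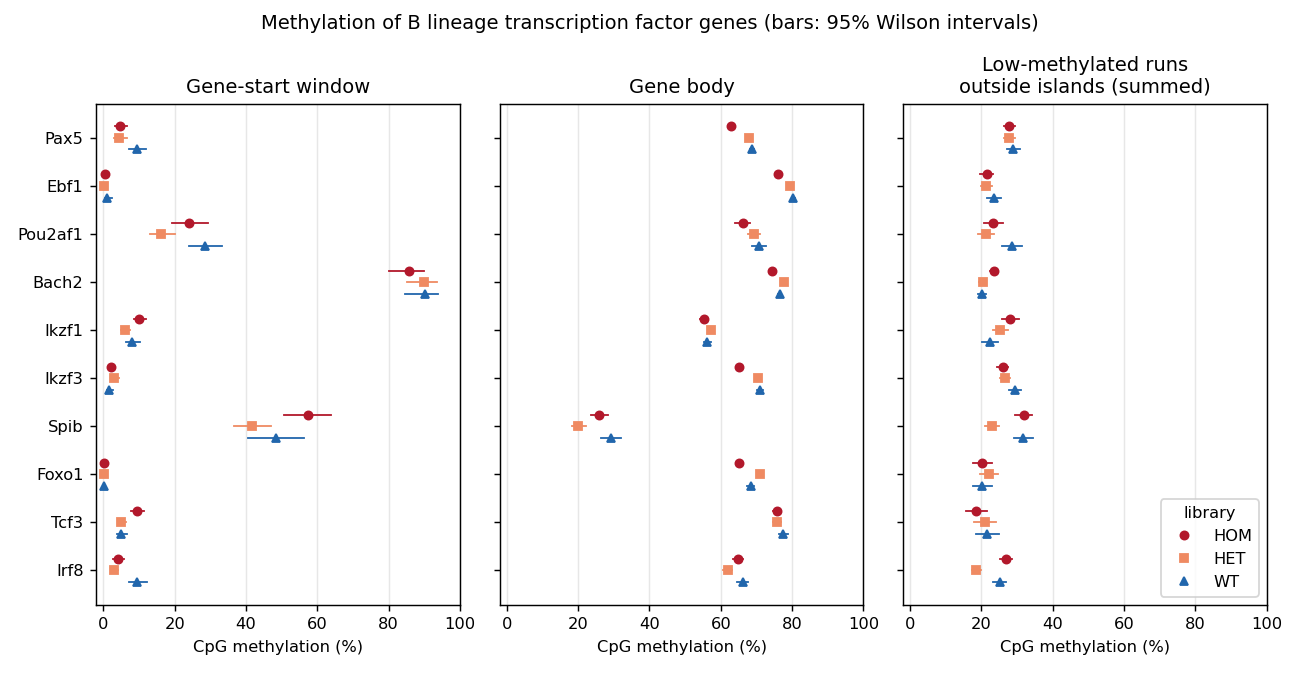
CpG methylation (%) of the 10 genes in HOM, HET and WT at the gene-start window (left), over the gene body (middle) and over all low-methylated runs outside islands summed (right), with 95% Wilson intervals. The start windows of Pou2af1, Spib and Bach2 stand above the others, and the summed runs of Irf8 and Spib are lower in HET (18.5% and 23.0%) than in HOM and WT.

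The factors that specify the lineage had starts with little methylation. Foxo1, which drives recombinase expression in progenitors, had 0.0779% in HOM, 0.143% in HET and 0.0828% in WT over 150 CpGs. Ebf1 had 0.556%, 0.281% and 1.004% in HOM, HET and WT. Tcf3 stood at 9.46% in HOM, 5.06% in HET and 4.95% in WT. The Tcf3 difference of HOM from WT was 4.52 points (95% Newcombe interval 2.20 to 6.88), under the 10 points a call needs.

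The start of Pax5 was unmethylated over a long stretch, broken by a methylated hump. Its window stood at 4.77% in HOM, 4.52% in HET and 9.42% in WT. The differences from WT were -4.65 points in HOM (-7.67 to -1.76) and -4.90 in HET (-7.95 to -1.90), again too small to be called. Around it lay 1 unmethylated run of 7311 bp over the start (5.88%, 4.86% and 6.08% in HOM, HET and WT) and another of 7752 bp downstream (4.51%, 4.57% and 6.68%). Between them, 1000 to 2000 bp inside the gene, 2 CpGs stood at 37.5% in HOM, 43.9% in HET and 67.6% in WT, from 32, 41 and 34 reads. The next 1000 bp lay almost wholly inside the downstream run, at its edge. Its 8 CpGs stood at 32.0% in HOM, 32.8% in HET and 57.3% in WT, from 150, 183 and 103 reads. HOM and HET lay near each other there and below WT, in bins of the profile that were not tested.

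Ikzf1 had the widest low-methylated run of the set in the mean of the libraries, 12551 bp and 300 CpGs over its start. The run stood at 11.1% in HOM, 9.36% in HET and 9.29% in WT. It was not unmethylated throughout, with 28.1%, 41.0% and 30.1% in HOM, HET and WT 7000 to 8000 bp from the start. In each library by itself it spanned 9405 bp in HOM, 7947 bp in HET and 7440 bp in WT. The Ikzf1 start window read 10.1%, 6.08% and 8.14% in HOM, HET and WT. Ikzf3, for which the CpG-richer end stood in for the start, read 2.22%, 2.997% and 1.65%. Neither zinc finger gene was called at its start in any comparison.

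**Figure D2:**
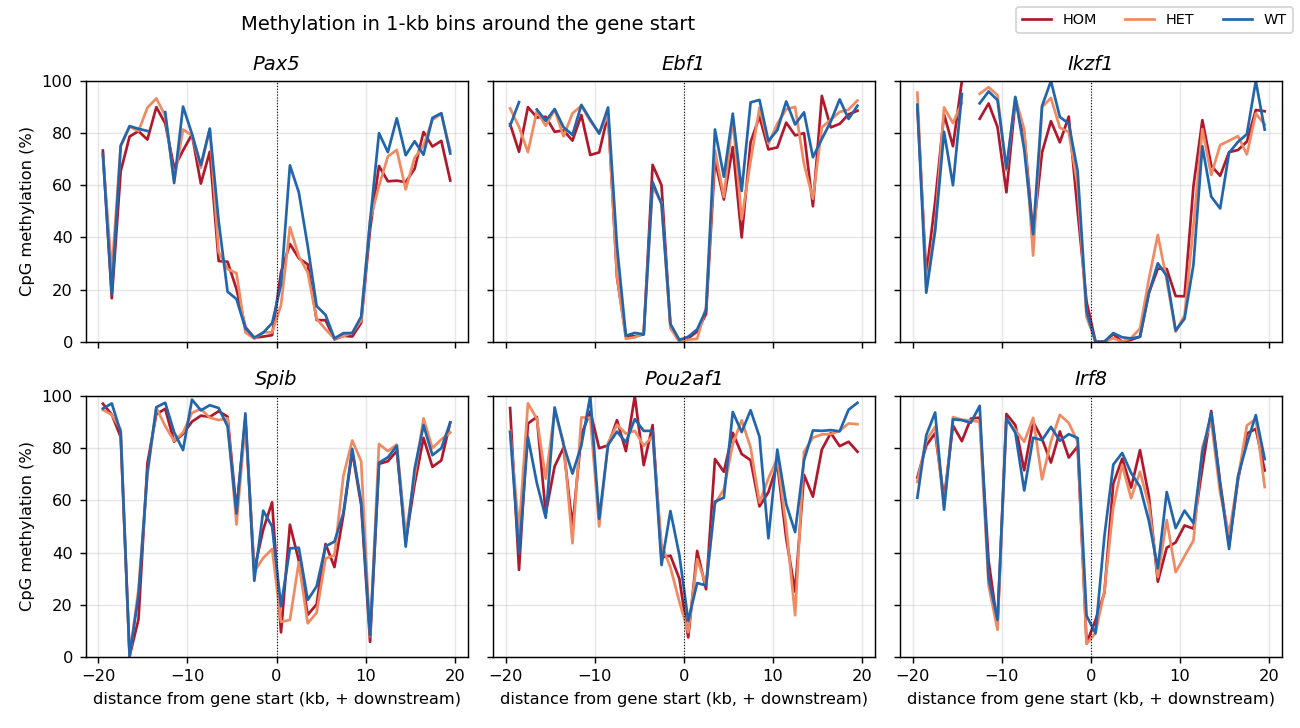
CpG methylation (%) in bins of 1000 bp by distance from the gene start (kb, positive into the gene) for 6 of the genes in HOM, HET and WT; bins with under 10 reads are left out. Pax5 shows 2 valleys with a hump between them that is highest in WT (67.6%), Ebf1 has a second valley upstream of its start, and Spib, Pou2af1 and Irf8 have narrower valleys at the start.

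Among the factors of mature B cells, Pou2af1 was the gene called in HET against WT. Its window held 31 CpGs, and the level was 23.9% in HOM (95% Wilson interval 19.4 to 29.2), 16.3% in HET (13.1 to 20.1) and 28.4% in WT (23.9 to 33.3). HET fell below WT by 12.1 points (difference -12.1, -17.9 to -6.17; Fisher's exact test, adjusted p = 0.00273), while HOM minus WT was -4.42 points (-11.2 to 2.50). Spib, an Ets factor related to PU.1, was called in HOM against HET. Its 22 CpGs stood at 57.4% in HOM (50.6 to 63.9), 41.7% in HET (36.6 to 47.1) and 48.4% in WT (40.6 to 56.2). HOM was 15.7 points above HET (7.03 to 23.99; Fisher's exact test, adjusted p = 0.00697), and neither library was called against WT. A wider window, from 2000 bp outside to 1000 bp inside, ended the Spib call at 9.77 points.

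Irf8, an interferon regulatory factor of B and myeloid cells, had an unmethylated first start at 4.11% in HOM, 2.94% in HET and 9.47% in WT. HOM was lower than WT by 5.36 points (difference -5.36, -8.48 to -2.50) and HET by 6.52 (difference -6.52, -9.52 to -3.93), short of a call. The window of its second start read 66.0% in HOM, 55.2% in HET and 73.6% in WT and was not tested. Bach2 read 85.7%, 89.9% and 90.2% in HOM, HET and WT at a listed start that lies inside the annotated span. An unmethylated island run of 3081 bp lies at the beginning of that span (chr4:32237778-32240858), at 2.54% in HOM, 3.73% in HET and 2.80% in WT.

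Segmented in each library by itself, with edges where the running level over 3 CpGs passed 50%, the run over the start had a median width of 4246 bp in HOM, 4697 bp in HET and 4697 bp in WT over the 9 genes that have one. At the 2 non-island starts it was widest in HET. The Spib run spanned 955 bp in HOM, 2925 bp in HET and 1258 bp in WT. The Pou2af1 run spanned 1808 bp, 3494 bp and 1453 bp in HOM, HET and WT. A running level over 5 CpGs gave 3384 bp in HET and 3461 bp in WT for Pou2af1, so that order depends on the smoothing. For Pax5 the HET run joined both valleys and spanned 13846 bp, against 4565 bp in HOM and 5365 bp in WT; with 5 CpGs the HOM run joined them too. Widths carry no test.

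Over gene bodies the summed differences had the same signs as the all-gene medians, while single genes departed from these medians, Spib most of all in HET. The sums weigh each gene by its CpG reads, while the medians weigh every gene alike. HOM minus WT was below 0 in all 10 bodies, and summed over them it was -3.88 points (-4.20 to -3.57), where the median of all bodies was -3.24. HET minus WT was -0.322 points (-0.612 to -0.03115), with an all-gene median of -0.466. HOM minus HET was -3.56 points (-3.85 to -3.27), with an all-gene median of -2.71. The greatest HOM minus WT differences were -6.00 points in Pax5, which read 62.8% in HOM and 68.8% in WT, and -5.87 in Ikzf3, which read 65.1% and 70.9%. The Spib body read 25.9% in HOM, 20.1% in HET and 29.1% in WT, a HET minus WT difference of -9.00 points (-12.4 to -5.65; Fisher's exact test, adjusted p = 2.78e-06). The Irf8 body read 64.8% in HOM, 61.9% in HET and 66.2% in WT, with HET minus WT at -4.24 points (-6.18 to -2.29; Fisher's exact test, adjusted p = 0.000246). HOM minus HET was 5.79 points in Spib (2.67 to 8.94) and 2.92 in Irf8 (1.05 to 4.77), the opposite sign to the all-gene median. Both stayed under the 10 points of a call. Bodies called numbered 0 of 10 in each comparison, against 3.22% of all bodies in HOM against WT, 1.34% in HET against WT and 2.33% in HOM against HET. Scaling HOM to the WT level outside low-methylated runs left -0.886 points of the summed HOM minus WT difference, and scaling HET in the same way turned HET minus WT to 0.272 points.

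At the far end of the gene, Irf8 and Bach2 were called. In HOM against WT 0 of 10 far-end windows were called, against 5.17% of all. In HET against WT 1 was (Irf8), against 1.89%, and in HOM against HET 2 were (Irf8 and Bach2), against 4.51%. Irf8 read 45.1% in HOM, 31.9% in HET and 48.3% in WT. Bach2 read 58.3% in HOM, 71.5% in HET and 68.4% in WT, so HOM was 13.2 points lower than HET (difference -13.2, -20.1 to -6.15).

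Low-methylated runs outside islands need at least 4 CpGs over 100 bp with a running level below 50% in the mean of the libraries. They held most of the calls, but were also far more numerous than the 10 windows of each kind. In any comparison 33 of 160 runs were called, and the most frequent call was a lower level in HET. The 10 loci held 189 runs, 18 of them over islands, and 160 of the other 171 had the 3 CpGs and 30 CpG reads per library that a comparison needs. In HET against WT 19 of the 160 were lower (11.9%), where 2.55% of 62599 runs across the autosomes were, and 2 were higher, where 1.98% were. In HOM against WT 7 were higher and 6 lower, against 3.54% and 1.99% of all runs. In HOM against HET 10 were higher and 3 lower, against 3.58% and 1.85%. HET had the most reads, so a difference from WT of the same size is called more readily in HET than in HOM. The part of depth in these counts was not tested. Summed over all 160 runs the level was 25.3% in HOM, 22.8% in HET and 24.9% in WT. HET minus WT was -2.12 points (-2.92 to -1.32), HOM minus WT 0.376 (-0.474 to 1.22) and HOM minus HET 2.50 (1.72 to 3.27).

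Those calls treat each CpG of a read as independent. With counts divided by the CpGs that 1 read covers, 66 runs could be compared, and the 19 lower calls in HET became 0, where 0.128% of all runs were called. The runs were found on the same reads that are compared; found in the library not compared, 18 of 163 were lower in HET, against 2.71% of all. At the start windows of T cell markers, 4 of 12 were called higher in HET than in WT and 0 lower, against 1.33% and 1.20% of all start windows. Of 57 runs at these genes 1 was called higher. Cd3e read 55.5% in HOM, 77.2% in HET and 50.3% in WT. The median of the 12 windows was 54.1% in HOM, 61.4% in HET and 51.8% in WT. B cell markers had lower medians, 29.9% in HOM, 25.8% in HET and 31.1% in WT. The part of T cells or other cells in the HET result was not tested.

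**Figure D3:**
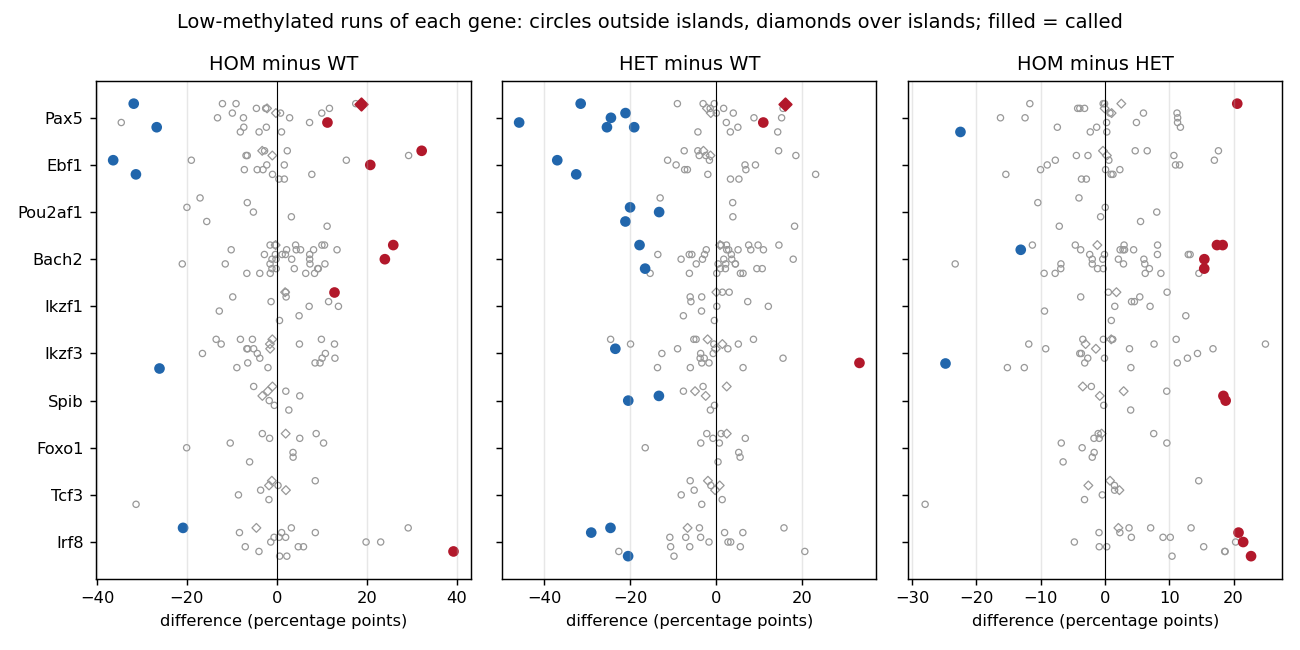
Difference in CpG methylation (percentage points) of each low-methylated run by gene, for HOM minus WT, HET minus WT and HOM minus HET; circles lie outside islands, diamonds over islands, and filled marks are called (red higher, blue lower). In HET minus WT most filled marks lie left of 0, 19 lower against 2 higher outside islands, and Foxo1 and Tcf3 have none.

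The lower runs of HET were spread over 7 of the genes, with 6 in Pax5, 3 each in Pou2af1 and Irf8, 2 each in Ebf1, Bach2 and Spib, and 1 in Ikzf3. Ikzf1, Foxo1 and Tcf3 had 0 among 11, 10 and 6 runs compared. These are few runs, and no difference between the genes was tested. By summed level, Spib read 31.9% in HOM, 23.0% in HET and 31.7% in WT, Irf8 27.0%, 18.5% and 25.1%, and Pou2af1 23.3%, 21.3% and 28.5%. HET minus WT was -8.70 points in Spib (-11.9 to -5.51), -6.55 in Irf8 (-8.80 to -4.32) and -7.26 in Pou2af1 (-10.9 to -3.64). In Spib and Irf8 HOM lay near WT, while in Pou2af1 HOM was also below WT (-5.24 points, -9.15 to -1.296). Bach2 and Ikzf1 went the other way in HOM, with HOM minus WT at 3.33 points (1.68 to 4.98) and 5.70 (2.35 to 9.04). Ikzf3 was lower in both, by -3.37 points in HOM (-5.63 to -1.12) and -2.66 in HET (-4.87 to -0.468). For Pax5, Ebf1, Foxo1 and Tcf3 the intervals of both differences from WT included 0. Like the calls, these intervals treat each CpG of a read as independent and may be too narrow.

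At Spib 2 runs flank the start. The run over the start (chr7:44529580-44532436, 29 CpGs) read 34.4% in HOM, 16.0% in HET and 29.3% in WT from 343, 388 and 256 reads. The run just upstream (chr7:44532979-44533649, 23 CpGs), which overlaps the neighbouring gene Pold1, read 33.5% in HOM, 14.7% in HET and 35.1% in WT. HET stood lowest at both. Both runs overlap the start window that was called in HOM against HET, and share CpG reads with it. HET minus WT was -13.3 points (-20.0 to -6.74) at the first run and -20.5 (-27.5 to -13.4) at the second, and HOM minus HET was 18.4 (12.2 to 24.6) and 18.8 (11.99 to 25.5). HET was below WT at 15 of the 22 CpGs with at least 5 reads in every library in the first run and at 10 of 14 in the second. Such counts, here and below, use the same reads as the calls, so they describe a called run and add no support. The calls of the first run depend on where its edges are drawn. With runs found in WT alone its HOM minus HET difference was 1.35 points, and with runs found in HOM alone its HET minus WT difference was -1.73, and neither was called.

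At Irf8 the greatest difference between mutants lay in a run past the far end of the gene. The run overlaps the far-end window called above, so these calls share CpG reads. That run (chr8:120757245-120758402, 17 CpGs) read 36.1% in HOM, 13.4% in HET and 33.9% in WT from 288, 351 and 183 reads. HET minus WT was -20.5 points (-28.3 to -12.9) and HOM minus HET 22.7 (16.1 to 29.2; Fisher's exact test, adjusted p = 9.37e-09). HOM was above HET at 15 of 15 CpGs with at least 5 reads in every library. It was the 1 call among 26 that could be compared that held with counts divided by CpGs per read, at 22.8 points (Fisher's exact test, adjusted p = 0.0361). A run inside the gene (chr8:120746059-120746596, 15 CpGs) was also lowest in HET, with 30.3% in HOM, 9.55% in HET and 38.6% in WT. Less than 1000 bp before it, a run (chr8:120745198-120745680, 11 CpGs) was lower in both mutants, at 30.5% in HOM and 26.8% in HET, against 51.4% in WT. The run at chr8:120741621-120741726 rests on 5 CpGs and was higher in HOM, with 60.9% in HOM, 42.3% in HET and 21.6% in WT from 46, 71 and 51 reads. Upstream of the gene, the Irf8 run with the most reads (chr8:120724918-120725967) was not called, at 12.3% in HOM, 8.16% in HET and 11.7% in WT.

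At Pou2af1 all 3 called runs were lower in HET. The run over the start (chr9:51213006-51214703, 32 CpGs), which holds the printed sequence, read 19.4% in HOM, 11.3% in HET and 24.6% in WT from 294, 450 and 370 reads. This run overlaps the called start window and shares CpG reads with it. HET was below WT at 19 of 21 CpGs with enough reads (difference -13.3 points, -18.6 to -8.01; Fisher's exact test, adjusted p = 0.000115). Upstream, the run at chr9:51211755-51212339 read 28.3% in HOM, 28.2% in HET and 48.3% in WT. Inside the gene, the run at chr9:51225145-51226001 read 27.3%, 21.7% and 42.9% in HOM, HET and WT. Both mutants lay below WT at these 2 runs. HET was called there and HOM was not, but HOM had fewer reads than HET at both.

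Pax5 had runs that differed from WT in both directions. The 4 with the greatest differences lay in the part of the gene nearer its start, the farthest of them 43105 bp in, and were lower in the mutants. They held 4 to 8 CpGs each. The run at chr4:44667531-44667648 read 18.2% in HOM, 6.90% in HET and 52.8% in WT from 33, 58 and 36 reads. Closer to the start, that at chr4:44673875-44674079 read 25.6%, 25.9% and 57.4% in HOM, HET and WT. HET was called at both, and HOM at the second. Nearest the start, the run at chr4:44695652-44695806 read 12.5% in HOM, 13.8% in HET and 39.2% in WT and was called in both. The run at chr4:44680227-44681064 read 16.5% in HOM, 5.21% in HET and 29.7% in WT and was called in HET. In contrast, the run with the most reads (chr4:44557868-44558754, 39 CpGs), near the far end, was higher in both mutants, with 33.3% in HOM, 33.0% in HET and 22.0% in WT from 772, 669 and 454 reads. HOM minus WT there was 11.3 points (6.09 to 16.2) and HET minus WT 11.0 (5.69 to 16.1).

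A CpG island inside Pax5 was the 1 island run of 18 that was called, higher in HOM and in HET than in WT. Of 13715 island runs 1.42% were called in HOM against WT, 0.853% in HET against WT and 1.30% in HOM against HET, where 0 of the 18 were. The island run (chr4:44664076-44664745, 78 CpGs), 46284 bp into the gene at its middle, was chosen for description after its values were seen. It read 30.1% in HOM, 27.6% in HET and 11.5% in WT from 525, 490 and 244 reads. HOM minus WT was 18.6 points (12.7 to 23.9) and HET minus WT 16.1 (10.1 to 21.4). In the part nearest the Pax5 start the level was 29.1% in HOM, 36.4% in HET and 13.3% in WT. In the middle it was 29.1%, 26.6% and 5.05%, and in the part farthest from the start 34.3%, 17.3% and 19.4%. HET thus lay above WT in the first 2 parts and not in the last. Of the 7 CpGs with at least 5 reads in every library, 7 were higher in HOM and 7 in HET than in WT, and all 7 lie in the part nearest the start. The island holds about 18.8 CpGs within the length of a read, so its CpG reads correspond to 28 reads in HOM, 26 in HET and 13 in WT, too few to be compared by the rule of 30.

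**Figure D4:**
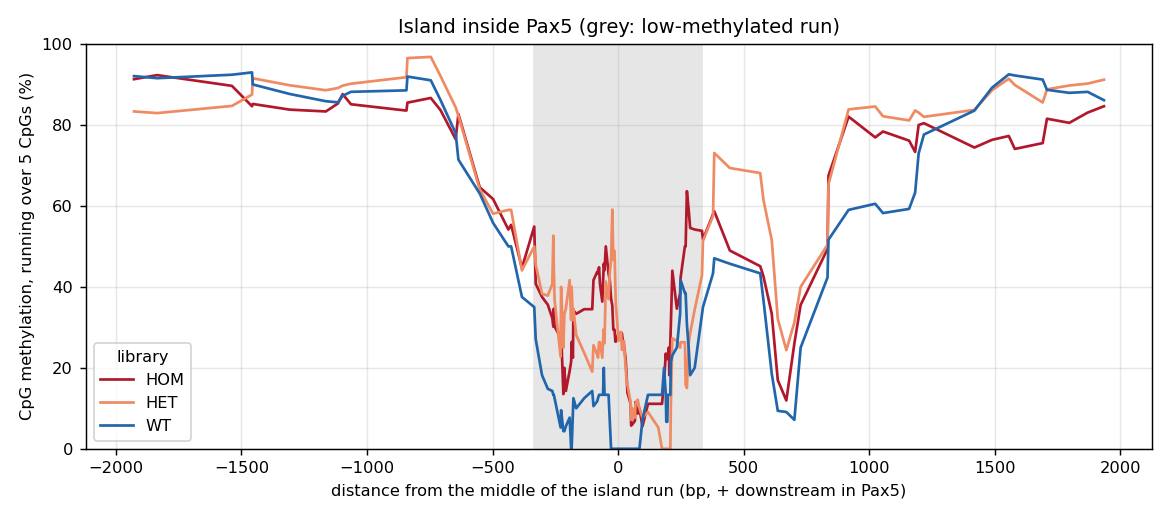
CpG methylation (%), running over 5 CpGs, against distance (bp, positive downstream in the gene) from the middle of the CpG island inside Pax5 in HOM, HET and WT; grey marks the low-methylated run. Within it WT is lowest over most positions (11.5% over the whole run), and HOM (30.1%) and HET (27.6%) lie above it.

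Ebf1 showed both directions as well. Its best covered called run (chr11:44765061-44765497, 8 CpGs), 147179 bp into the gene at its middle, read 11.4% in HOM, 10.1% in HET and 42.7% in WT from 123, 217 and 103 reads. All 8 CpGs were lower in HOM and in HET than in WT. HOM minus WT was -31.3 points (-42.0 to -19.9; Fisher's exact test, adjusted p = 1.53e-05) and HET minus WT -32.6 (-42.8 to -22.3; Fisher's exact test, adjusted p = 5.88e-08). The run at chr11:44663579-44663896 had the same order on 4 CpGs, with 18.6%, 18% and 55.0% in HOM, HET and WT. The run at chr11:44709907-44710223 was higher in HOM, with 50% in HOM, 32.4% in HET and 17.8% in WT. So was the run at chr11:44928424-44928851, with 26.8% in HOM, 15.2% in HET and 5.97% in WT. These 2 rest on 34 to 99 reads per library, and HOM was above WT at 3 of 4 and 4 of 6 CpGs with enough reads.

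Most of the 6 called Bach2 runs were higher in HOM or lower in HET. The run at chr4:32263735-32263953 read 45.1% in HOM, 26.8% in HET and 19.2% in WT, and HOM was higher at 6 of 6 CpGs with enough reads. A second one (chr4:32288120-32288665) read 44.3% in HOM, 38.2% in HET and 20.3% in WT and was called in HOM. Another 2 runs were lower in HET, with HOM near WT. The first, at chr4:32219775-32220517, read 38.0% in HOM, 20.5% in HET and 38.4% in WT. The other, at chr4:32358438-32359114, read 24.5% in HOM, 9.03% in HET and 25.6% in WT. The run at chr4:32601152-32601491, chosen for description after its values were seen, went the other way, with 13.7% in HOM, 26.8% in HET and 23.8% in WT, and was called lower in HOM than in HET. The Bach2 run with the most reads (chr4:32247556-32249806, 35 CpGs) showed no call, at 10.5%, 12.5% and 10.7% in HOM, HET and WT.

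Of the zinc finger genes, Ikzf1 had 1 of 11 runs called in any comparison and Ikzf3 3 of 22, against 33 of 160 over the 10 loci. Upstream of Ikzf1, the run at chr11:11667070-11668433 (15 CpGs) read 31.2% in HOM, 21.6% in HET and 18.5% in WT, and HOM was higher than WT by 12.7 points (4.69 to 20.4). In Ikzf3, the run at chr11:98497405-98497881 (12 CpGs) read 16.7% in HOM, 29.2% in HET and 42.9% in WT and was called lower in HOM. The run at chr11:98469905-98470105 was the greatest rise in HET among the called runs, with 36.6% in HOM, 61.5% in HET and 28.0% in WT, on 4 CpGs. The run at chr11:98515577-98515847, also of 4 CpGs, was lower in HET, with 45.8% in HOM, 29.03% in HET and 52.5% in WT. Foxo1 and Tcf3 had no called run among 10 and 6. Their runs with the most reads stood at 13.4%, 14.3% and 15% in Foxo1 and 7.71%, 10.9% and 9.46% in Tcf3 in HOM, HET and WT.

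The genes that Pax5, Ebf1, Tcf3 or Pou2af1 are known to act on also had runs that were lower in HET. Of their 146 runs 21 were lower in HET than in WT (14.4%) and 11 lower in HOM (7.53%), against 2.55% and 1.99% of all runs. At their start windows 6 of 20 were lower in HET, against 1.20% of all start windows. In HOM 5 of 20 were lower and 1 higher, against 3.22% and 1.08%. Blnk, which encodes an adaptor downstream of the B cell receptor, read 30.5% in HOM, 24.3% in HET and 48.2% in WT. Blk, a B cell kinase, read 49.5%, 59.6% and 64.9% in HOM, HET and WT. Cd79a and Cd79b, the signalling chains of the B cell receptor, were called lower in HET. Cd79a read 32.9%, 26.6% and 38.9%, and Cd79b 52.8%, 45.6% and 59.5% in HOM, HET and WT. Bst1 was the gene higher in HOM, with 64.9% in HOM, 57.7% in HET and 48.2% in WT. Among 30 other B cell transcription factors and partners, 10 of 290 runs were lower in HET (3.45%), and Mef2b, a germinal centre factor, was the 1 start window called, with 19.6% in HOM, 19.1% in HET and 36.3% in WT. B cell markers, a list that shares genes with the targets, had 9 of 67 runs (13.4%) and 2 of 10 start windows lower in HET. The lower runs were therefore not particular to the targets. Among factors of T, NK and myeloid cells 4 of 125 runs were lower in HET (3.20%), and of 57 runs at T cell markers 0 were. Between these lists no difference was tested.

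**Figure D5:**
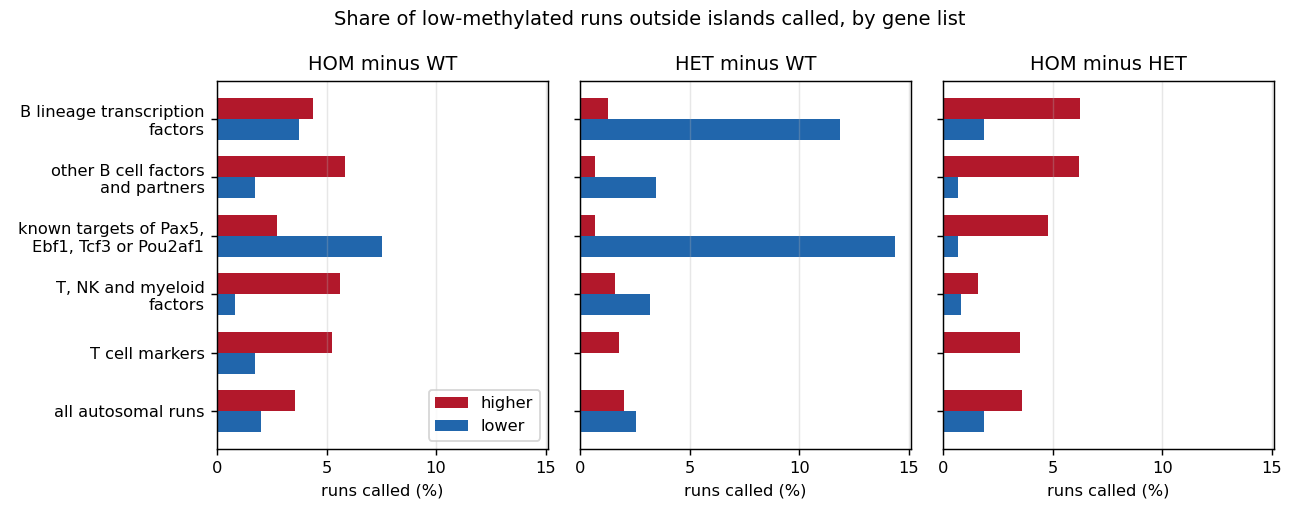
Share (%) of low-methylated runs outside islands called higher (red) or lower (blue) in HOM minus WT, HET minus WT and HOM minus HET, by gene list. In HET minus WT the lower share is 11.9% for the B lineage transcription factors and 14.4% for the targets, against 2.55% of all autosomal runs. B cell markers, which are not drawn, had 13.4%.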

How the data were processed

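Methylation was measured in mouse splenic B cells by whole-genome bisulfite sequencing. The deposited table gives raw counts of methylated and of covering reads per CpG, per the file headers, in 1 column pair per genotype. The sources used here do not say whether a pair holds 1 of the 2 labelled samples or both, nor which filters and tools made it. The submitters' processing notes name mm10, Trim Galore 0.2.8, Bismark, Bowtie2, Picard 1.91 and 2.3.0, BWA 0.7.13 and MethylDackel. The 3 blood samples were not analysed here. All 395568 CpGs of the RefSeq promoter sequences (GRCm38.p6) fell on CpG positions of the table.

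A level is the sum of methylated reads of a region over the sum of its covering reads. Wilson intervals for levels and Newcombe intervals for differences are given at 95%. They cover counting error only and take the CpG reads as independent. Regions on autosomes entered a comparison where they held 3 or more CpGs and each library had 30 or more CpG reads there. A gene body is the span without 500 bp at each end. CpG islands were found from CpG positions (17 per CpG, -1 per other base, over 200 bp, at least 6 CpGs per 100 bp), and gene starts came from the promoter table. Exons and introns were not assigned. The planned sum over replicates was not needed. Members, lists and tests were chosen with earlier results of these data known. Named runs are, per gene, the run over the start, the run outside islands with the most reads and up to 4 called runs by size of difference; of other lists, up to 4 genes called at the start against WT. One gene that this rule names is not reported here. Alternatives changed the read minimum, averaging, scaling, size of difference, window, run limits and the library that defines runs, and divided counts by the CpGs within 150 bp. Python 3.11.15, numpy 2.4.6, pandas 2.3.3, scipy 1.17.1 and numba 0.67.0 were used, and the code was tested on simulated data.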

Additional observations from a re-analysis of the deposited data

How the results depend on the processing

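No call at starts, island runs or other runs reversed its direction under the alternatives run. The calls at far-end windows were not put through them. Of 51 single calls, 51 of 51 held with levels scaled to WT outside runs, 40 of 40 with at least 60 CpG reads, 36 of 36 with runs of at least 6 CpGs, 49 of 51 with means of single CpGs, 32 of 51 at 20 points, 30 of 44 with runs found in the library not compared, 10 of 24 with runs below 30%, 1 of 2 with the wider window and 1 of 26 with counts divided by CpGs per read. The limits of 60 CpG reads and of 6 CpGs only drop regions and leave the counts of the rest unchanged. Calls below these limits are left out, so that the others held was nearly fixed in advance. Scaling multiplied HOM levels by 1.043 and HET levels by 1.008, a small change where levels are low. That calls held with scaling was therefore nearly fixed in advance as well. At 20 points calls were lost because their differences were smaller than that. Elsewhere the cause of lost calls was not tested, beyond the fewer regions and reads that some settings leave.

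With counts divided by CpGs per read, runs in HOM against HET gave 1 higher and 0 lower. Every other count of calls that had been above 0 became 0. These were starts in HET against WT and in HOM against HET, and runs in HOM and in HET against WT. Island runs in HOM and in HET against WT were also among them, where the called Pax5 island run had too few reads to be compared. At 20 points the counts at starts and island runs became 0, runs in HET against WT gave 1 higher and runs in HOM against HET 4 higher. With runs below 30%, HOM against WT gave 3 higher and 1 lower, HET against WT 0 higher and 4 lower, and HOM against HET 0 lower. Runs of at least 6 CpGs, and runs found in the library not compared, each gave 1 higher in HET against WT. The wider window gave 2 starts in HET against WT and 0 in HOM against HET. The summed body difference became -2.97 points in HOM against WT and -2.87 in HOM against HET with means of single CpGs, and -0.886, 0.272 and -1.16 in HOM against WT, HET against WT and HOM against HET with scaled levels, where the HET against WT value, which was not called, changed sign. Edges at 30% gave median widths of 2960 bp in HOM, 2610 bp in HET and 2791 bp in WT, and a running level over 5 CpGs gave 4725, 4542 and 4733 bp, so the order of the libraries by width depends on the setting. Runs inside the span or at the start only, an alternative chosen after seeing the data, left the counts within 1.5 times. No paired analysis was possible because each genotype has 1 column pair, and no library could be left out for the same reason. With about 10 reads per CpG, single CpGs and runs of 4 CpGs carry wide intervals.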

Other observations

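At start windows of genes of other blood cells, the libraries differed as follows. Among 12 myeloid markers, HOM against WT gave 1 higher and 0 lower windows, and HET against WT 2 higher and 2 lower. S100a8, a neutrophil calcium-binding protein, read 52.2% in HOM, 59.7% in HET and 36.5% in WT. The integrin gene Itgam, also higher in HET, read 70.6%, 75.5% and 64.1% in HOM, HET and WT. The receptor genes Csf1r and Csf3r were lower in HET, with 71.02%, 62.02% and 74.1% for Csf1r and 41.5%, 39.1% and 50.7% for Csf3r in HOM, HET and WT. Of 8 NK cell markers 0 were called in any comparison. Of 9 erythroid and platelet markers with a window, 0 were called against WT. In the T cell list, Cd8b1 read 68.1% in HOM, 81.3% in HET and 66.1% in WT, Cd3g 53.6%, 72.0% and 58.1%, and Cd5 53.6%, 44.3% and 40.2% in HOM, HET and WT. No CpG of the 10 loci with at least 8 reads in every library was below 10% in 1 library and above 60% in both others, where 0.0195% of such autosomal CpGs were.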
